A study of Mus musculus with 8 samples.

Results

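The genes described here encode the proteins of the cytosolic ribosome. They were chosen by symbol alone from the protein-coding genes of RefSeq on the mouse assembly GRCm38.p6: Rpl or Rps followed by a number, with or without a single letter or x, together with Rplp0, Rplp1, Rplp2 and Rpsa, and without the Rps6k kinase genes. The rule found 81 of 21887 protein-coding genes, 50 for the large subunit and 31 for the small subunit. The readout was ATAC-seq, in which the transposase Tn5 cuts DNA that is free of nucleosomes, in primary cortical neurons prepared from mice at E16.5. Wild-type neurons (WT) were set beside neurons homozygous for a floxed Brg1 allele and carrying BAF53bCre (cKO), a Cre driven by the gene of a BAF subunit specific to neurons. Brg1 is an ATPase of the BAF chromatin remodelling complexes. On day 6 in vitro each genotype was either left without KCl (basal) or depolarised with KCl at 50 mM over 1 h. TTX at 1 µM and APV at 100 µM, which silence spontaneous firing and NMDA receptors, were added on day 5 before depolarisation, and the labels do not state whether basal cultures received them. Each of the 4 conditions had 2 libraries of 50000 cells, and a single deposited list of nucleosome-free peaks stood for both, so no value below has a replicate error and no test between conditions was possible.

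A ribosome joins a small subunit, which reads the mRNA, to a large subunit, which forms the peptide bond, and nearly every one of their proteins is encoded by a single active gene. Ribosomal protein genes are among the most highly transcribed housekeeping genes. Their mRNAs start with a C followed by a run of pyrimidines, the 5′ terminal oligopyrimidine (TOP) tract, through which mTOR signalling sets their translation. In neurons many of these mRNAs are also carried into axons and dendrites. A gene was counted as carrying a gene-end peak in a list when at least 1 peak overlapped the 1 kb on either side of either annotated end, so that a start site and a 3′ end are both covered.

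The lists held 34061 (WT basal), 20229 (WT KCl), 20484 (cKO basal) and 25690 peaks (cKO KCl), lengths that touch every count below. Runs of 4 values follow that order of lists throughout. Median summit pileups were 30.0 to 33.0 fragments and the background floor of the peak caller was 8.23 to 9.47 fragments, so presence in a list is a call on few fragments and absence means only that no peak passed the caller. Of 10 markers of cortical neurons, 5 or 6 had a gene-end peak in each list, among them Map2, Tubb3 and Neurod6 in all 4, whereas Slc17a7, Gad2 and Rbfox3 had none. None of 4 microglial markers had a gene-end peak in any list. Of 4 markers of the oligodendrocyte lineage, Olig2 had one in all 4 lists (folds of 3.14, 2.69, 3.11 and 3.70) and Mbp at rest in both genotypes, and of 3 vascular markers Flt1 had one in all 4 (2.76, 2.39, 2.83 and 2.76). Of 4 astrocyte markers, WT basal had a gene-end peak at 3 and the other lists at none, and the part of other cell types in the values below was not tested.

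In each condition most ribosomal protein genes carried an open gene end. Gene-end peaks were present at 58 of the 81 genes in WT basal (71.6%), against 46.5% of all protein-coding genes. In WT KCl they were present at 55 genes (67.9%), against 39.8%. The cKO basal list had them at 52 genes (64.2%), against 38.8%, and the cKO KCl list at 60 genes (74.1%), against 45.2%. The lowest count, as over all genes, was that of cKO basal, and the counts spanned 8 genes. All 4 lists held a gene-end peak at 37 genes (45.7%, against 29.0% of all genes), and 11 genes had none in any list (13.6%, against 43.1%). A further 5 genes were in 1 list (6.17%, against 10.6% of all genes), 12 in 2 lists (14.8%, against 8.30%) and 16 in 3 lists (19.8%, against 9.00%).

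Ribosomal protein genes are short, with a median length of 3175 bp against 17169 bp over all genes. Short genes had fewer open ends: among all genes of 5 kb or less, 25.1, 19.7, 19.4 and 23.2% had a gene-end peak. The 68 ribosomal genes of that length had one in 70.6, 67.6, 63.2 and 73.5% of cases. Another protein-coding gene end lay within 1 kb of 29 of the 81 genes (35.8%, against 24.8% of all genes). Without those 29, the shares of the other 52 genes were 69.2, 69.2, 59.6 and 71.2%, against 40.9, 34.1, 33.5 and 39.4% of all genes without a close neighbour. The contrast with all genes was therefore also present among short genes and among genes that stand alone.

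Of the 70 genes with a gene-end peak in any list, 18 shared every such region with the end of another gene. The same count was not made over all genes. Rpl15 shared its region with Nkiras1, Rpl37 with Card6, Rpl12 with Lrsam1 and Rpl7a with Med22. The peaks counted for Rpl3l, a paralog of Rpl3 used in striated muscle, lay at the end of Msrb1 (chr17:24736327-24736671). The peak summits cannot be assigned to one gene of such a pair.

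The promoter stretches below, from RefSeq on GRCm38.p6, show what these start sites look like: 120 bases before and 30 bases from the annotated start, read 5′ to 3′ on the gene's strand. Capitals mark the ETS core CCGGAAG, the CRE TGACGTCA, the palindromic CGCG element and, around the start, a C followed by at least 4 pyrimidines and preceded by a pyrimidine. Rpl15 (chr14:18270957-18271106 on the minus strand), Rpl37 (chr15:5116493-5116642 on the plus strand), Rps6 (chr4:86857338-86857487 on the minus strand) and Rps12 (chr10:23787180-23787329 on the minus strand) are shown because they were among the 8 highest genes by mean percentile of fold over the 4 lists.
Rpl15: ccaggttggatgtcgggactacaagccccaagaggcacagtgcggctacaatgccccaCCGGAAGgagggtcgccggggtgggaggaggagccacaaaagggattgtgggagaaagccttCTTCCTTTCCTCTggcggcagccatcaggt
Rpl37: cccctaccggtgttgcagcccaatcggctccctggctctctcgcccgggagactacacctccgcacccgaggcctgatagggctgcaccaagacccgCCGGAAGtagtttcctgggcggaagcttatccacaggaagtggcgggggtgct
Rps6: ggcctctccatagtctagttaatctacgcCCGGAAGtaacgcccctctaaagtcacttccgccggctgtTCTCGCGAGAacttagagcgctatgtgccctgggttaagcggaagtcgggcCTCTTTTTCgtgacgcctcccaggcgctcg
Rps12: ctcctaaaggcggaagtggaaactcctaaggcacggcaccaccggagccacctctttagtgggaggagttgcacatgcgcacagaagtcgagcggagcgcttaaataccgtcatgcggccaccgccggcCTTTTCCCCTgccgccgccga
Rpl13 (chr8:123102230-123102379 on the plus strand) is shown because its peak was called after KCl in each genotype and at rest in neither.
Rpl13: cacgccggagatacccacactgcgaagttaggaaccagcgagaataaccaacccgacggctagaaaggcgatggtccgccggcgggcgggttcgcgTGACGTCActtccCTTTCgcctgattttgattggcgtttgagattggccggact
Rpl38 (chr11:114668460-114668609 on the plus strand) and Rps27l (chr9:66945966-66946115 on the plus strand) are shown because they had no gene-end peak in any list although the same elements stand at their starts.
Rpl38: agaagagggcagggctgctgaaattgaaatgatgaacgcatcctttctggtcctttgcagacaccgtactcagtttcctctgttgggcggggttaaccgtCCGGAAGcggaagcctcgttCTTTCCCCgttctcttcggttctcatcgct
Rps27l: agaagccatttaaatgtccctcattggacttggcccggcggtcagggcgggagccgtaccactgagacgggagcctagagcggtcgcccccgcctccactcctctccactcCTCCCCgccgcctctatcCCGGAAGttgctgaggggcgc
These stretches share short elements and little else. The start of Rps27l, though not within reach of an annotated gene end, lay inside a site of all 4 lists, which is described with the genes that had no gene-end peak.

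RefSeq promoters of 300 bases, from 250 before to 50 from the start, were matched for 61 of the 81 genes and for 17492 protein-coding genes, and were searched on both strands. A polypyrimidine start, with its C within 20 bases of the annotated start on the gene's strand, was present in 37 of the 61 promoters (60.7%), against 30.6% of all promoters. It was present in 72.4% of the 29 promoters of genes with a peak in all 4 lists, 52.2% of 23 with 1 to 3 lists and 44.4% of 9 with none. Over all genes the shares were 29.2% for genes in all 4 lists and 32.0% for genes in no list. The 44.4% among ribosomal genes is 4 of 9 promoters, those of Rpl32l, Rpl38, Rpl39l and Rps27l. It does not describe closed promoters either, because the start of Rps27l lay inside a site of all 4 lists. The ETS core CCGGAAG, bound by ETS factors such as GABP, was present in 24 promoters (39.3%), against 11.9% of all promoters and 20% of those of genes in all 4 lists. By number of lists its shares among the ribosomal genes were 48.3% (4 lists), 26.1% (1 to 3) and 44.4% (none). The last share is 4 of 9 promoters, those of Rpl38, Rpl39l, Rps2 and Rps27l, and the starts of Rps2 and Rps27l lay inside a site of all 4 lists beyond the gene-end window, so it does not describe closed promoters.

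The other elements were compared in the same way. The palindromic CGCG element, searched by its 10 letters, was present at 5 promoters (8.20%: Rpl12, Rpl26, Rps19, Rps28 and Rps6), against 0.726% of all. The CRE TGACGTCA, bound by CREB, was present at 5 (Rpl13, Rpl18, Rpl26, Rpl27a and Rps9), or 8.20% against 2.33%. The AP-1 site TGANTCA was present at 1 promoter (1.64%), against 7.03% of all promoters. The GC box GGGCGG was present in 57.4%, against 46.3% of all promoters and 72.5% of those of genes in all 4 lists. CCAAT was present in 31.1% against 39.2%, TATAAA in 11.5% against 13.3%, CACGTG in 8.20% against 7.91% and the YY1 letters ATGGCGGC in 6.56% against 3.21%. The NRF1 element was present in 1 promoter (1.64%), against 1.33%. Among promoters of genes in all 4 lists, AP-1 sites were present in 3.15%, the CRE in 3.83% and the YY1 letters in 5.66%. There the palindromic CGCG element had 1.51%, CCAAT 43.5%, TATAAA 5.03%, CACGTG 10.0% and NRF1 2.12%. Against all promoters, the polypyrimidine start and the ETS core thus had the widest differences in percentage points, and the NRF1 and E-box letters the narrowest. A match of letters is a description of the window and no evidence of binding.

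**Figure D1:**
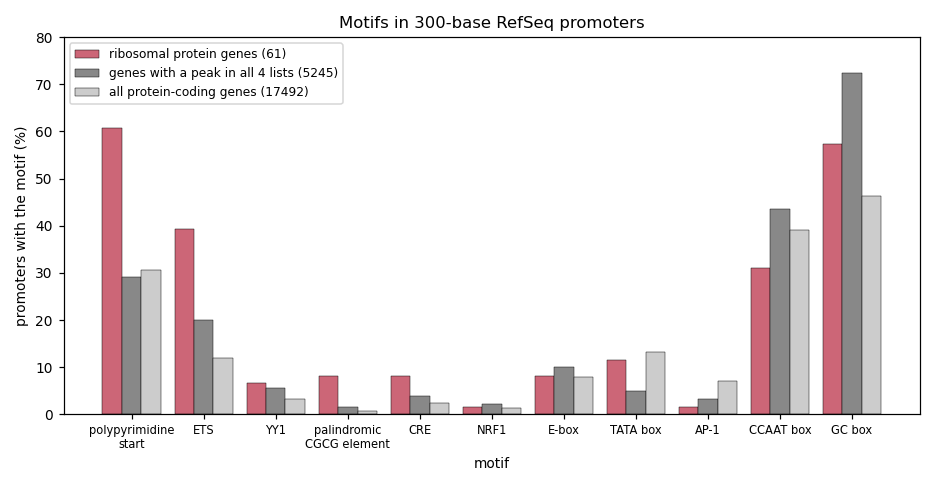
Percent of 300-base RefSeq promoters that hold each element (vertical axis, from 0) for ribosomal protein genes, for genes with a gene-end peak in all 4 lists and for all protein-coding genes. The polypyrimidine start (60.7%) and the ETS core (39.3%) stand above both other sets.

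The position of the summits followed the start sites, as it did over all genes. Where strand was known, the strongest peak of a ribosomal gene lay nearer the start than the 3′ end at 41 of 43, 35 of 40, 39 of 42 and 42 of 45 genes. These shares were 95.3, 87.5, 92.9 and 93.3%, against 92.9, 94.9, 94.6 and 94.9% over all genes. Median summit positions were -60, -36, -54 and -48 bp from the start, that is upstream of it, against 16, 12, 21 and 22 bp over all genes. Summits upstream of the start made up 73.2, 74.3, 71.8 and 69.0%, against 45.2, 46.5, 44.1 and 44.3%. At Rpl15 they lay at -88, -109, -100 and -88 bp, between the ETS core of the printed stretch and the upstream edge of that stretch. At Rps12, whose promoter entry starts inside the annotated end, they lay at -38, -110, -99 and -111 bp from that entry's start. From the annotated start, used for the medians, they lay downstream, at 136, 64, 75 and 63 bp. Peaks shared with another gene's end were kept in the medians, such as those of Rps25 at -693, -655, -615 and -657 bp. In all 4 lists the median summit of the ribosomal genes thus lay a little upstream of the annotated start.

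**Figure D2:**
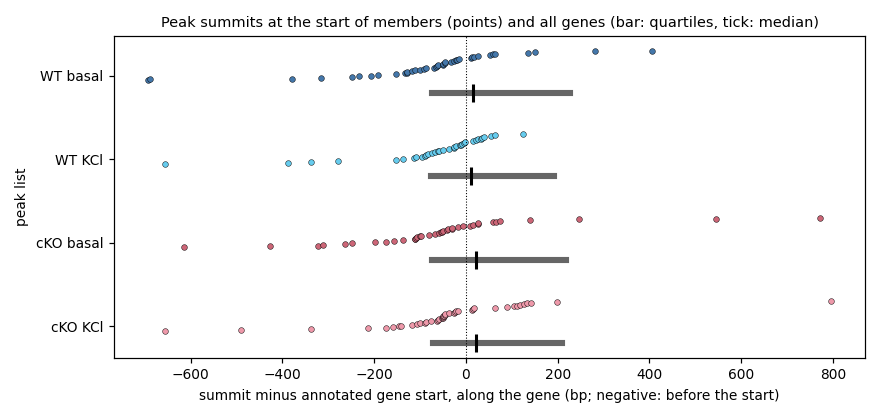
Distance of the strongest peak's summit from the annotated start in bp (horizontal axis, negative is before the start), per list, for ribosomal protein genes with known strand whose summit lies nearer the start (points) and for all such genes (bar from the lower to the upper quartile, tick at the median). The points have medians between -60 and -36 bp, and the ticks lie between 12 and 22 bp.

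Each fold below is the authors' value for a peak, its pileup over the local background. These folds rank peaks within a list and do not measure a change between lists. Among the 37 genes present in all lists, Rpl37 and Rpl15, both of the large subunit, stood highest by mean rank. Rpl37 had folds of 7.15, 4.55, 6.21 and 7.22 on pileups of 92, 53, 71 and 88 fragments. Rpl15 had folds of 7.67, 4.33, 6.02 and 7.05 on 78, 39, 62 and 65 fragments. In WT KCl, where both folds were lowest, the percentiles of the 2 genes among all peaks were 93.7 and 91.3, and in each of the other lists they were at least 99.1. Rpl34 followed with folds of 6.93, 5.56, 4.71 and 5.01, and was the highest of all ribosomal genes in WT KCl.

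Rpl27 had folds of 6.12, 4.33, 5.35 and 5.24, and Rpl27a, a different protein in spite of its name, had 4.61, 3.89, 4.77 and 5.39. Rps12, a small-subunit protein known from cell competition in flies, had folds of 5.34, 4.95, 4.30 and 6.31. Rps6, the substrate of the S6 kinases whose phosphorylation is used as a marker of active neurons, had folds of 4.95, 4.66, 4.36 and 6.06. These 7 genes had mean percentiles above 91 over the lists, and none of them lacked a peak in a condition.

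At the other end of the 37 genes, Rpl7a had folds of 2.68, 2.55, 2.75 and 3.01, below the median of the list in every case. Rpl4, which lines the exit tunnel of the large subunit, had folds of 2.53, 3.68, 2.86 and 2.78. No single region gave Rpl4 its 4 lists: the site on its start side, shared with Zwilch, was in both WT lists, and that on its 3′ side, shared with Snapc5, was in both cKO lists and WT KCl. The remaining 36 genes had the same merged region in all 4 lists, as had 6110 of the 6357 protein-coding genes with a peak in all 4. Rpsa, which lies on the small subunit and is also known as a laminin receptor, had folds of 2.80, 2.76, 3.10 and 4.20. Rps14 had folds of 3.22, 2.94, 2.37 and 4.05, Rps10 had 3.19, 2.50, 3.97 and 3.72, Rps18 had 2.95, 2.98, 3.14 and 3.21, and Rps25 had 3.10, 3.44, 3.01 and 3.24. Of the 8 lowest genes present in all lists, which include Rplp2, 5 belong to the small subunit.

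The proteins of the stalk, which recruits elongation factors to the large subunit, differed among themselves. Rplp0, the base of the stalk, had folds of 4.17, 4.61, 3.63 and 4.59. Rplp2 had 3.44, 3.38, 3.10 and 2.78. Rplp1 had folds of 3.53 (WT) and 3.36 (cKO) after KCl, and no peak at rest in either genotype. Rpl5 and Rpl11 join the 5S rRNA and bind Mdm2 when ribosome assembly fails. Rpl11 was in all lists with 3.50, 4.02, 3.43 and 3.60, whereas Rpl5 was in the cKO lists alone, with 2.67 (basal) and 3.53 (KCl) in 2 different regions of 1 list each. Rps19, the gene most often mutated in Diamond-Blackfan anaemia, had folds of 4.07, 3.97, 3.47 and 4.07.

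By rank the ribosomal peaks lay near those of other genes. The median percentile of fold among all peaks of the list was 76.1, 75.9, 76.2 and 73.9. Over all genes with a gene-end peak it was 80.5, 73.8, 74.7 and 75.5, within 5 points of the ribosomal genes in each list and lower than theirs in WT KCl and cKO basal. Among peaks with −log10 q of 5 or more the ribosomal medians were lower in every list, at 52.7, 56.2, 53.6 and 64.5 against 68.5, 61.6, 62.0 and 65.2. Genes in all 4 lists ranked above genes in 1 to 3 lists, with medians of 88.6, 82.4, 78.6 and 82.4 against 64.3, 65.5, 49.3 and 56.5 among the ribosomal genes. The same order held over all genes, at 88.8, 81.3, 81.4 and 84.9 against 52.9, 46.8, 42.9 and 49.0. Stronger peaks pass the caller in more lists, so this order is in part built into the grouping and is no separate result.

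**Figure D3:**
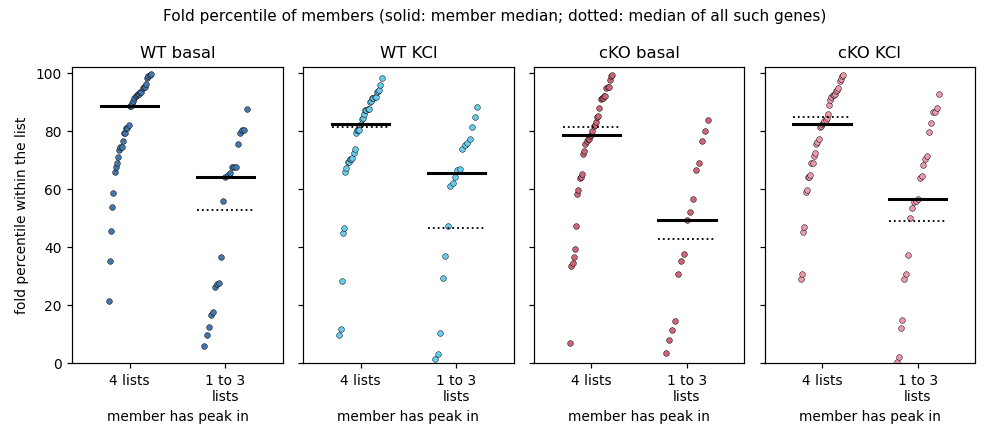
Percentile of each ribosomal gene's strongest gene-end peak by fold among all peaks of its list (vertical axis), split into genes in all 4 lists and in 1 to 3 lists. Solid lines are medians of the ribosomal genes, 78.6 to 88.6 on the left and 49.3 to 65.5 on the right of each panel, and dotted lines those of all genes split in the same way.

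Loss of Brg1 was compared first in basal neurons. Of the 58 genes with a gene-end peak in WT basal, 12 had none in cKO basal (20.7%), against 25.7% over all genes. They included Rpl3, Rpl8, Rpl12, Rpl23, Rpl23a, Rpl24, Rpl26, Rpl29, Rps15, Rps16 and Rps29. Rpl3 and Rpl8 lie near the peptidyl transferase centre, and Rpl23a near the exit of the tunnel. The folds of the 12 in WT basal ran from 2.37 to 3.50 on pileups of 29 to 41 fragments, and the 46 genes present in both lists reached 7.67 and 92 fragments. In the other direction 6 of 52 genes in cKO basal had none in WT basal (11.5%), against 11.0%, among them Rpl5, Rpl6, Rps23, Rps26 and Rps28. Both shares lay close to those of all genes. No ribosomal gene had peaks in both WT lists and in neither cKO list, a pattern of 1.27% of all genes.

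After KCl, 5 of the 55 genes in WT had none in cKO (9.09%), against 11.8%, among them Rpl3l, Rpl22, Rps7 and Rps27a, the last of which encodes a fusion with ubiquitin. Conversely 10 of the 60 genes in cKO KCl had none in WT KCl (16.7%), against 22.4%. Of those 10, 9 encode large-subunit proteins (Rpl5, Rpl9, Rpl10a, Rpl14, Rpl18, Rpl19, Rpl23a, Rpl24 and Rpl26) and 1 a small-subunit protein. Large-subunit genes made up 37 of all 60. With every RefSeq promoter start added to the gene ends, Rpl18 and Rpl22 were in all 4 lists, so their absences here rest on the gene-end window. The folds of the 10 genes in cKO KCl ran from 2.31 to 4.38. Of the 12 genes listed for WT basal, 10 had a peak in cKO KCl (83.3%), all except Rpl8 and Rps15, against 55.3% of the 2616 such genes among all genes.

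The subunits differed in count, without a test. Gene-end peaks were present at 35, 30, 29 and 37 of the 50 large-subunit genes and at 23, 25, 23 and 23 of the 31 small-subunit genes. The small-subunit counts thus moved by 2 genes over the lists and the large-subunit counts by 8, with the large-subunit counts lowest in the 2 shortest lists.

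Depolarisation was compared within each genotype. In WT, 12 of 58 genes with a peak at rest had none after KCl (20.7%), against 24.6% of all genes. They included Rpl8, Rpl9, Rpl14, Rpl18, Rpl19, Rpl23a, Rpl24, Rpl26, Rpl39, Rps15 and Rps27. Conversely, 9 of 55 genes in WT KCl had none at rest (16.4%), against 11.9%. They included Rpl13, Rpl22, Rpl36, Rplp1, Rps3, Rps23, Rps26 and Rps28. In cKO, 7 of 52 genes with a peak at rest had none after KCl (13.5%), against 11.8%, among them Rpl3l, Rpl6, Rpl39, Rps7, Rps27 and Rps27a. Finally, 15 of 60 genes in cKO KCl had none at rest (25%), against 24.3%. They included Rpl3, Rpl10a, Rpl12, Rpl13, Rpl23, Rpl23a, Rpl24, Rpl26, Rpl29, Rpl36, Rplp1, Rps3, Rps16 and Rps29. In each comparison the share lay within 5 points of that of all genes. Rpl18 and Rpl22 differed by gene ends alone, and both were in all 4 lists with every RefSeq promoter start added.

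In both genotypes 4 genes had a peak after KCl and none at rest (4.94%, against 1.30% of all genes). Rpl13 had folds of 3.30 (WT) and 3.20 (cKO), in the region chr8:123102264-123102609 over its start. Rps3, which sits where mRNA enters the small subunit, had 3.00 and 3.11. Rplp1, of the stalk, had 3.53 and 3.36, and Rpl36 had 2.51 and 2.12. Rpl36 shared its region with Micos13, whereas the sites of the other 3 were their own. The reverse, a peak at rest in both genotypes and none after KCl, was seen at Rpl39 with folds of 2.91 (WT) and 2.73 (cKO) and at Rps27 with 3.11 and 2.94 (2.47%, against 1.27%). None of these folds passed the median of the ribosomal genes in its own list (3.31, 3.53, 3.39 and 3.66). Rplp1 equalled that median in WT KCl.

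Genes in 3 lists were divided by the list that lacked them. WT basal lacked Rps23, Rps26 and Rps28, which had folds of 2.89 to 4.49 in the other lists. WT KCl lacked Rpl9, Rpl14, Rpl18 and Rpl19, of which Rpl18 was absent by gene ends alone. For Rpl19, whose sites reached a fold of 2.31 at most, the sites lay beside Cacnb1 at chr11:98022027-98022486 in WT basal and chr11:98022691-98022932 in both cKO lists, which are different regions. The cKO basal list lacked Rpl3, Rpl12, Rpl23, Rpl29, Rps16 and Rps29, of which Rps29 had folds of 3.50, 3.47 and 5.06 and Rpl3 had 3.50, 3.23 and 4.36 in the other lists. The cKO KCl list lacked Rpl3l, Rps7 and Rps27a. In a single list stood Rpl6 (cKO basal, 2.39), Rpl8 (WT basal, 2.37), Rpl10a (cKO KCl, 3.09), Rpl22 (WT KCl, 2.86) and Rps15 (WT basal, 2.60). With 1 exception, Rps29 in cKO KCl, no gene in 1 to 3 lists ranked in the top 10% of a list.

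**Figure D4:**
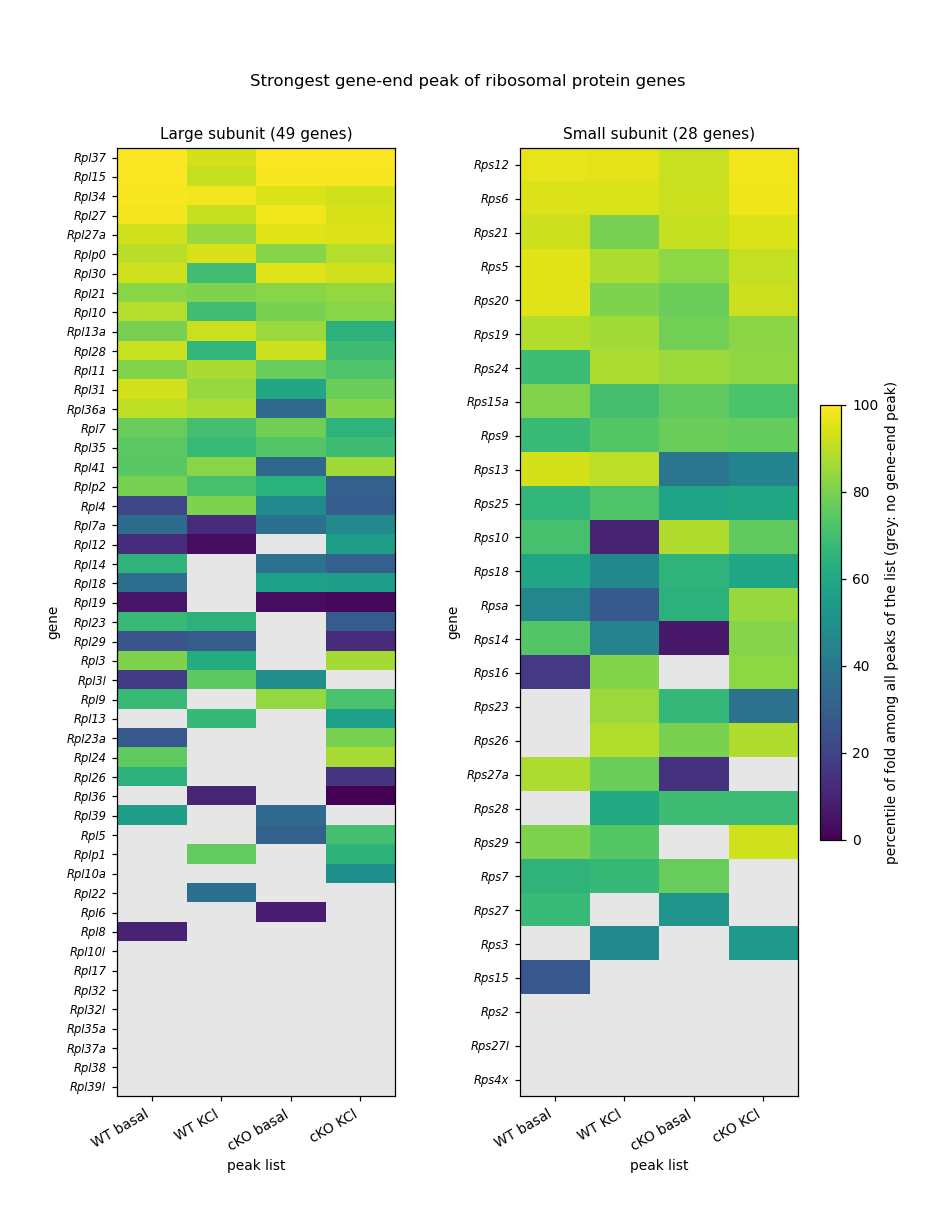
Percentile of fold within its list (colour, 0 to 100) of the strongest gene-end peak of 77 ribosomal protein genes in the 4 lists, by subunit, with grey where no peak was present. The 35 genes coloured in all 4 columns stand above 31 genes in 1 to 3 lists and 11 with none.

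The 11 genes with no gene-end peak fell into different kinds. Rpl10l and Rpl39l, paralogs of Rpl10 and Rpl39 used mainly in the testis, and Rpl32l had none. Their parents Rpl10 (4.08, 3.36, 3.53 and 4.06) and Rpl39 (2.91 in WT basal and 2.73 in cKO basal) had peaks, but Rpl32 had none. Rpl17, Rpl35a, Rpl37a, Rpl38, Rps2 and Rps4x, which encode standard proteins of the ribosome, also had none, nor had Rps27l, a paralog of Rps27 known as a p53 target. Rpl38 is known for its part in the translation of Hox mRNAs.

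For 4 of the 11 a site lay inside the annotated gene, beyond the 1 kb window, in all 4 lists at Rps2 and Rps27l and in fewer at Rpl17 and Rpl38. The Rpl17 site was in both cKO lists, with folds of 3.06 (basal) and 3.03 (KCl). Rps2 had a site at chr17:24719726-24720241 with folds of 3.63, 4.14, 3.70 and 4.63, over its RefSeq promoter start at 24720063. Rps27l had a site at chr9:66945674-66946178, 1050 bp from the nearest annotated end, with folds of 3.69, 3.25, 4.68 and 3.85. The promoter start of the Rps27l stretch printed above lies inside it. Rpl22, counted in 1 list by its gene ends, had a site in all 4 lists 1136 bp inside the gene (chr4:152325572-152326090) with folds of 4.75, 5.03, 4.39 and 4.87. These sites ranked with those of genes counted in all 4 lists. When every RefSeq promoter start was added to the gene ends, an alternative chosen after seeing the data, counts were 61, 58, 56 and 63, against 50.1, 43.0, 42.0 and 48.8% of all genes, and 41 genes were in all 4 lists. Rpl18 also reached 4 lists and Rpl38 reached 1 (cKO basal, 2.61), and 8 genes had no peak by that count: Rpl10l, Rpl17, Rpl32, Rpl32l, Rpl35a, Rpl37a, Rpl39l and Rps4x.

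Ribosomal protein genes have many processed pseudogenes, which are intronless copies elsewhere in the genome. Of 318 annotated ribosomal protein pseudogenes, 4, 1, 4 and 5 had a peak at an end (1.26, 0.314, 1.26 and 1.57%), and none had one in all 4 lists. Over all 10429 pseudogenes the shares were 4.78, 2.54, 2.52 and 3.18%, and 0.7% had one in all 4 lists. Reads from a gene and its near-identical copies may be placed at either, and the part of such placement in these counts was not tested. Small nucleolar RNAs, which guide the modification of ribosomal RNA, lay between the annotated ends of 29 of the 81 genes (35.8%, against 1.70% of all genes), 58 in all. Whether they lie in introns or on the gene's strand was not examined. Genes with such an RNA made up 40.5% of those in 4 lists, 33.3% of those in 1 to 3 and 27.3% of the 11 in none. The same split was not made over all genes.

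The symbol rule leaves out ribosomal proteins with other names and some paralogs. Fau, which encodes Rps30 fused to a ubiquitin-like protein, had folds of 3.12, 2.74, 2.63 and 2.73. Rack1, a scaffold on the small subunit, had 2.81 (WT) and 3.81 (cKO) after KCl, with none at rest in either genotype. Rps3a1 had 2.94, 4.01 and 3.82, with none in cKO basal. The paralog Rpl36al had 6.29, 5.45, 5.61 and 6.96, and Rpl7l1 had 2.58, 2.60, 2.80 and 3.53, whereas Rpl22l1 had 5.24, 4.49 and 4.81 with none in WT KCl. Of these 6 genes, 3 were in all 4 lists.

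Other parts of the translation machinery were counted in the same way. Of 78 mitochondrial ribosomal protein genes, 53, 43, 47 and 53 had a gene-end peak and 29 had one in all 4 lists (37.2%). Of 11 elongation factor and other TOP genes, 11, 11, 9 and 10 had one and 9 were in all 4, with Eef1d and Btf3 the exceptions. Of 27 initiation factor genes, 22, 19, 19 and 25 had one, 15 were in all 4 and Eif3g was in none. Of 36 ribosome biogenesis genes, 28, 25, 23 and 30 had one, 20 were in all 4, and Nop10, Pes1, Ubtf and Taf1b were in none. Of 12 genes that signal to ribosomal protein mRNAs, 9, 8, 8 and 8 had one and Larp1, Akt1 and Rps6kb2 had none. Over all genes 46.5, 39.8, 38.8 and 45.2% had a gene-end peak, and 29.0% had one in all 4 lists. The cytosolic ribosomal proteins had 45.7% in all 4 lists, and of these gene lists only the mitochondrial ribosomal proteins had a lower share. The biogenesis and initiation genes had 55.6% each, the signalling genes 66.7% and the elongation factor and other TOP genes 81.8%.

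**Figure D5:**
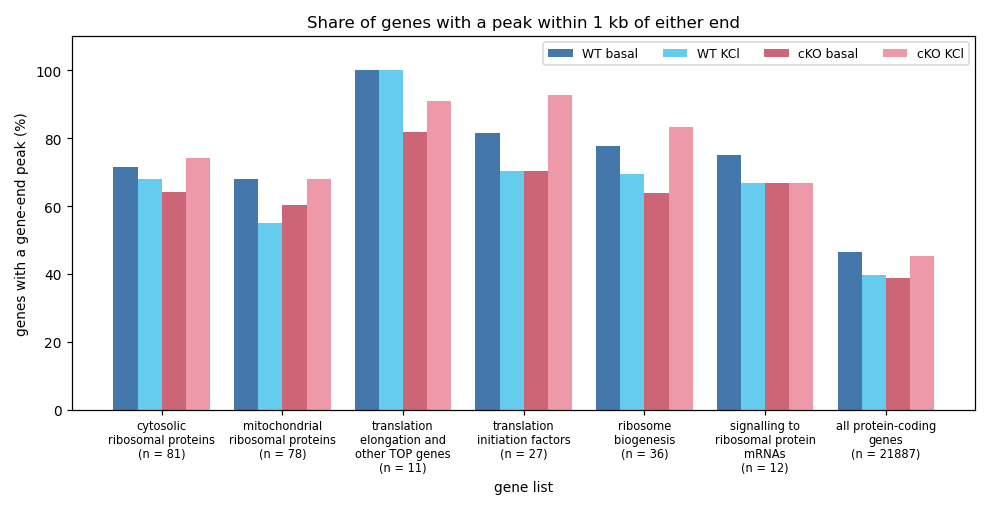
Percent of genes with a gene-end peak (vertical axis, from 0) in the 4 lists (coloured bars), for the cytosolic ribosomal protein genes, the other lists of the translation machinery and all 21887 protein-coding genes. The bars of the ribosomal protein genes run from 64.2% to 74.1%, above those of all genes (38.8% to 46.5%).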

How the data were processed

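ATAC-seq peaks of 8 libraries in 4 conditions were analysed, 2 libraries behind each of 4 deposited lists. Per the submitters' processing notes, Bowtie2 and MACS2 were used with the builds GRCm38 and mm10, names of the same assembly. The sources used here do not give their versions and settings, the Tn5 shift, the length limit of nucleosome-free fragments or how libraries were combined. In the narrowPeak layout, the authors deposited a score, a fold over local background, which is a ratio, p-values and q-values as −log10, and the summit distance in bp. No column of an unmatched sample was present (0). Read depth is not in the files. Whole-number fragment pileups solved fold and p-value in 100% of each list's peaks (tolerance 0.001 on the −log10 scale), taking a pseudocount of 1 as MACS2 does. At the background floor the lowest pileup of a called peak was 20 to 22 fragments.

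Python 3.11.15, pandas 2.3.3, numpy 2.4.6 and scipy 1.17.1 were used, and matplotlib 3.10.9 for figures. Genes, ends and promoters came from RefSeq tables of GRCm38.p6, which matches the files' build. A gene end was open in a list when at least 1 peak overlapped the 1 kb on either side by 1 bp, and 5 mitochondrial peaks per list were left out. The counting was tested on simulated data. Members and gene lists were chosen with earlier results of these data known. Named were all genes absent from any list, the 8 highest and 8 lowest by mean fold percentile among genes in all 4, the stalk proteins, paralogs with their parents, Rpl5, Rpl11, Rps6, Rpl38, Rps19 and Rps12, and ribosomal proteins outside the symbol rule, to which Rps3a1 was added after its values were seen. Rps4l is a pseudogene in RefSeq and no member. Protein sequences were not used here. Some genes that the rule names are counted but not reported by name. Alternatives were a stricter q-value, other windows, summits in place of peaks, start ends alone, lists of equal length, genes without close neighbours and other ranks.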

Additional observations from a re-analysis of the deposited data

Results flagged for a closer look

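In Rpl23a, Rpl24 and Rpl26 the presence of a gene-end peak went with KCl in opposite directions in the genotypes, each on 1 list per condition, and the difference was not tested. Rpl23a (2.61 and 3.91), Rpl24 (3.30 and 4.38) and Rpl26 (3.03 and 2.58) had a peak in WT basal and cKO KCl, with the folds in that order, and none in WT KCl or cKO basal. Over all genes, 2.92% had this pattern. The lists that held these peaks are the longest (34061 and 25690 peaks). With all lists at 20229 peaks, Rpl24 kept the pattern, Rpl26 was in WT basal alone and Rpl23a in cKO KCl alone.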

How the results depend on the processing

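Of 150 values under alternatives, 125 stayed within 1.5 times the count or within the interval of the median, and 25 moved. With −log10 q of at least 5, the median percentiles of WT were 52.7 at rest and 56.2 after KCl, and those of cKO 53.6 and 64.5. The medians over all genes were then 68.5, 61.6, 62.0 and 65.2, so the gap passed 5 points in every list except cKO KCl. By start ends alone the ribosomal medians stayed within their intervals, at 74.7, 73.2, 76.7 and 71.5. Those over all genes were 82.3, 75.9, 75.8 and 77.0, so the gap passed 5 points in WT basal and cKO KCl. Ranked among gene-end peaks the ribosomal medians were, in the same order, 51.4, 57.9, 58.2 and 54.9 (all genes 57.4, 55.2, 56.3 and 57.0), and at equal list length WT basal gave 65.3 (all genes 73.8). Among the 52 genes without a close neighbour, counts were 36, 36, 31 and 37, with 23 in all 4 lists (24.3% of all such genes). Of these, 3 of 36 were in WT KCl and not cKO KCl (all genes 12.7%), 7 of 36 in WT basal and not WT KCl (27.2%), 4 of 37 in cKO KCl and not WT KCl (24.6%), and 4 of 31 in cKO basal and not cKO KCl (13.3%). WT KCl genes absent from cKO KCl numbered 8 of 55 at equal list length (all genes 14.7%), 8 of 45 at −log10 q of 5 (12.4%) and 2 of 38 by start ends alone (10.3%). Genes of cKO basal absent from cKO KCl numbered 4 of 38 at −log10 q of 5 (10.0%) and 4 of 39 by start ends (10.7%). By start ends, 7 of 41 were in WT basal and not cKO basal (24.0%), and 9 of 44 in cKO KCl and not cKO basal (23.2%). The drop to 52 or 61 genes is part of those alternatives. The cause of the other moves was not tested.

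At equal list length the counts of genes with a peak were 52, 55, 52 and 55 (all genes 39.9, 39.8, 38.7 and 42.0%), against 58, 55, 52 and 60 with all peaks. No paired analysis was possible because each condition had 1 pooled list that carries no replicate number, and for the same reason no library could be left out. The depth of each library is unknown, so presence of a peak could not be checked between libraries.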
